A study of Mus musculus with 12 samples.

Results

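The regions described here are 4642 promoters of mouse mesenchymal stem cells (MSCs) that carried trimethylation of lysine 4 of histone H3 (H3K4me3) without acetylation of lysine 27 (H3K27ac). They were selected on the authors' own peak calls. An interval had to be in the H3K4me3 peak lists of both oxygen levels and be narrower than 5000 bp. No H3K27ac peak of either oxygen level could overlap it or lie within 1000 bp, and a transcription start of a protein-coding gene had to lie within 1000 bp. The 4642 promoters were 36.9% (95% Wilson interval 36.1 to 37.8) of the 12578 shared H3K4me3 intervals at coding starts. They were 31.8% of the 14600 intervals in both H3K4me3 lists, and the 4 lists of the series held 22555 distinct intervals. All intervals given here as 95% are Wilson intervals, which cover counting error only.

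The cells were MSCs of mice aged 3 to 5 months, given in the study's methods as C57BL/6N wild-type males. The labels call them bone-marrow cells, while the methods describe outgrowth from digested bone fragments. By the methods, cells grown out at low oxygen were sorted as CD45-/TER119-/CD140a+/Sca-1+ and then kept for a week at 2% oxygen (hypoxia) or 21% oxygen (normoxia), whereas the protocol in the labels names the sort last. The cells were profiled by chromatin immunoprecipitation followed by sequencing (ChIP-seq). H3K27ac, H3K4me3 and input chromatin were each sequenced in 2 libraries at each oxygen level, which makes 12 libraries in 6 groups. Both libraries of a mark and oxygen level had been pooled into 1 peak list, so no value below has a replicate check and oxygen could not be tested.

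H3K4me3 is deposited by SET1 and MLL methyltransferases around transcription starts, and proteins with a CXXC domain help to bring these enzymes to unmethylated CpG-rich DNA. H3K27ac is written by p300 and CBP and marks promoters and enhancers in use. A promoter that holds the first mark without the second is often found at CpG islands of genes that are silent or weakly transcribed, and in many cell types part of this class also carries the Polycomb mark H3K27me3, which was not profiled in these libraries.

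To show the kind of DNA these calls lie on, the 200 bases before the most upstream start are printed for 8 of the promoters. They are read from the RefSeq copy of GRCm38 (the mm10 build) on the strand of the gene, 5′ to 3′, with each CG in capitals. Lhx4 encodes a LIM homeodomain factor (chr1:155742028-155742227, minus strand, 10 CGs), and Wnt2b encodes a secreted Wnt ligand (chr3:104961922-104962121, minus strand, 16 CGs). Kcna3 encodes the voltage-gated potassium channel Kv1.3 (chr3:107035969-107036168, plus strand, 27 CGs), and Mapt encodes the neuronal microtubule protein tau (chr11:104231190-104231389, plus strand, 33 CGs). Mrpl12 encodes a protein of the mitochondrial ribosome (chr11:120484413-120484612, plus strand, 15 CGs), and Ercc2 encodes the XPD helicase of nucleotide excision repair (chr7:19381810-19382009, plus strand, 19 CGs). Bbs7 encodes a subunit of the BBSome, a complex of the primary cilium (chr3:36613478-36613677, minus strand, 9 CGs). Each of these 7 was the first of its gene list by H3K4me3 score, ties by symbol, whose stretch overlapped no annotated exon. Bmp2 encodes a bone morphogenetic protein (chr2:133551959-133552158, plus strand, 33 CGs) and was shown because it is a bone gene of the study.
Lhx4: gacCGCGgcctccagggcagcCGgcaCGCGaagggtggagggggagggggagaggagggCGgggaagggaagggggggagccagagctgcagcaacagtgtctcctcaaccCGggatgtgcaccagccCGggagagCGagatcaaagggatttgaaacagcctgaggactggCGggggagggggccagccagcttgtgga
Wnt2b: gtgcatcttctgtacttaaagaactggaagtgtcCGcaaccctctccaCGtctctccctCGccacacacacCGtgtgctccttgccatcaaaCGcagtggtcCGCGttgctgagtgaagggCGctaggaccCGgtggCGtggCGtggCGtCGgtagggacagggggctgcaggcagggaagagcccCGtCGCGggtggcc
Kcna3: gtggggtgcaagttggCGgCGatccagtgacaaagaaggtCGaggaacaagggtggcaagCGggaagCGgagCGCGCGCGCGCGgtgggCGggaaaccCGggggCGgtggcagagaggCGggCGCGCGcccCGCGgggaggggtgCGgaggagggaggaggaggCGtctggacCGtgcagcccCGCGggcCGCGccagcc
Mapt: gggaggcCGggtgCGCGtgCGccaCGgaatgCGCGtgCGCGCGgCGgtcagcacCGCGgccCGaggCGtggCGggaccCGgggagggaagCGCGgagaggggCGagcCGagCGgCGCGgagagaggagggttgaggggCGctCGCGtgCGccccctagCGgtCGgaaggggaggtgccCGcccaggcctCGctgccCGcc
Mrpl12: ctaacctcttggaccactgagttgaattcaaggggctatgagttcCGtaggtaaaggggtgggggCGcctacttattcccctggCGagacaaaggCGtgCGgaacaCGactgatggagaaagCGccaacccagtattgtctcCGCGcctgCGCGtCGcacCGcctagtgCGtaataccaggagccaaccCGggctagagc
Ercc2: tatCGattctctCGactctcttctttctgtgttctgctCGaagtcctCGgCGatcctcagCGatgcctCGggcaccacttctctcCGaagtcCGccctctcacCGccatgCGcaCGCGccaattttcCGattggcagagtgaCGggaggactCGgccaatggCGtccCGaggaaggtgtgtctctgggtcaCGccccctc
Bbs7: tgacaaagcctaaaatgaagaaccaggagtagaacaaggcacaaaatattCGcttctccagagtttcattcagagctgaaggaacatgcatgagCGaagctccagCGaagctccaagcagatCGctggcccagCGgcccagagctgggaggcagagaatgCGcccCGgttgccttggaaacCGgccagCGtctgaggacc
Bmp2: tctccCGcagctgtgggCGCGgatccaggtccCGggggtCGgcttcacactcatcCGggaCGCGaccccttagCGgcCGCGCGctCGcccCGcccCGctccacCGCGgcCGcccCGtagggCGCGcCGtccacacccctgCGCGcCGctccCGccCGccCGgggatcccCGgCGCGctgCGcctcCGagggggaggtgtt

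The same stretch is also given for a start without an H3K4me3 peak. Wnt1, a Wnt ligand with a role in bone formation (chr15:98789657-98789856, plus strand), held 19 CGs. That is more than at Lhx4, Wnt2b, Mrpl12 and Bbs7 above. Wnt1 does not stand for starts without H3K4me3, of which 4.53% were CpG-rich by the measure defined below. Bmp2 and Wnt1 were chosen after their values were seen.
Wnt1: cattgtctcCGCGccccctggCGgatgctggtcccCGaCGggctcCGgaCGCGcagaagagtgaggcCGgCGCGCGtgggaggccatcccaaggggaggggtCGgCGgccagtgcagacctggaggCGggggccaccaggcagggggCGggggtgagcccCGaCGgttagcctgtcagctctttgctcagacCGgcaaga

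As intervals, the promoters without H3K27ac were compact. Their median width was 2500 bp (quartiles 2000 and 2500), and 1859 of them had exactly that width, 1558 had 2000 bp and 707 had 3000 bp. Together they covered 11.3 Mb. Every boundary in the lists was a multiple of 500 bp. Of the H3K4me3 intervals at coding starts and below the same width limit, 6297 overlapped H3K27ac and are called acetylated promoters below, while 873 had H3K27ac within 1000 bp without overlap. The median width of acetylated promoters was 3000 bp (quartiles 2500 and 3500). Both marks were called on shared boundaries, so the width of an acetylated promoter is that of the stretch with both marks. Width and the absence of H3K27ac were part of the selection and are given as a description.

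In position, the class without H3K27ac sat on its starts like the acetylated one. A coding start lay inside 4591 of the 4642 intervals (98.9%, 95% interval 98.6 to 99.2), and inside 6253 of 6297 acetylated promoters (99.3%). The centre of the interval lay a median of 195 bp downstream of the start (quartiles 36 and 368), against 237 bp (36 and 488) for acetylated promoters. At 1000 bp upstream of the start an H3K4me3 peak covered 46.4% of the promoters without H3K27ac and 70.5% of the acetylated ones. At 2000 bp downstream the shares were 8.88% and 31.6%. The plot of coverage around the start shows that the H3K4me3 block was narrower on both sides where H3K27ac was lacking.

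**Figure D1:**
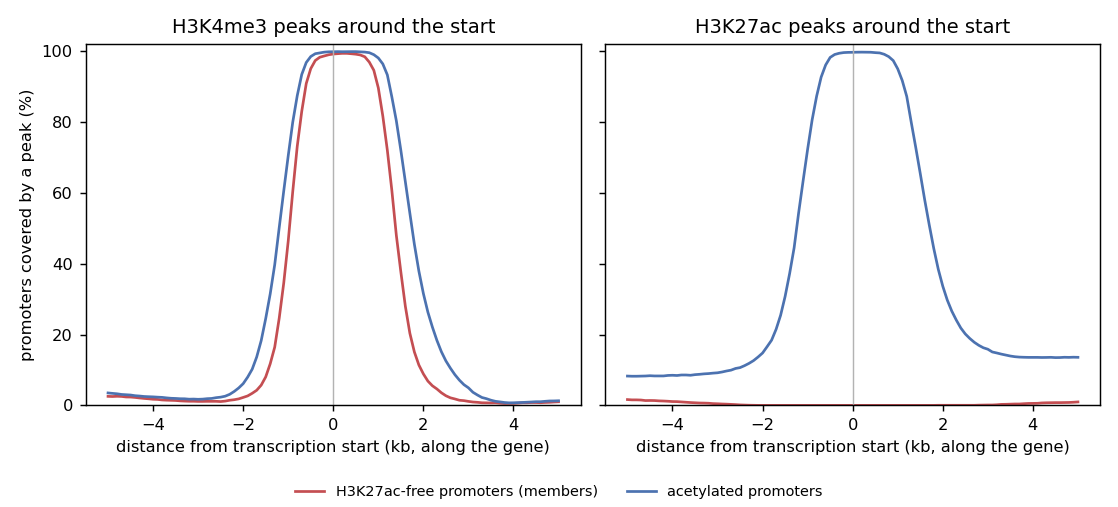
Percentage of promoters covered by an H3K4me3 peak (left) or an H3K27ac peak (right) of either oxygen level, from 5 kb before to 5 kb after the transcription start, for the 4642 promoters without H3K27ac (red) and the 6297 acetylated promoters (blue). At the start 99.2% and 99.8% are covered by H3K4me3, and the absence of H3K27ac in red follows from the selection.

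The score that the authors gave each peak was of limited use for these promoters. Its definition is not stated. The lowest score at these promoters was 50, the highest below 1000 was 160, and 622 promoters stood at 1000. All 14600 shared H3K4me3 intervals, and thus all 4642 promoters here, had the same score at 2% and at 21% oxygen, whereas 6365 of 14614 shared H3K27ac intervals (43.6%) did. The median difference between oxygen levels was therefore 0. By the methods, peaks were called in a differential mode between the oxygen levels, so the scores need not be independent. The 0 is thus no measure of how stable H3K4me3 was at these promoters. High scores also followed the chromosome. On 7 of 20 chromosomes no shared H3K4me3 interval reached 1000, on chromosome 15 86.9% did, and 8746 of 14579 neighbouring pairs of intervals had exactly the same score. Only low values were therefore compared between classes.

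Low H3K4me3 scores were commoner where H3K27ac was lacking. A score under 100 was held by 432 of the 4642 promoters (9.31%, 95% interval 8.50 to 10.2), by 75 of 6297 acetylated promoters (1.19%, 0.951 to 1.49) and by 737 of 2022 H3K4me3 intervals away from coding starts (36.4%, 34.4 to 38.6). The share was higher than at acetylated promoters on 20 of 20 chromosomes, where it ranged from 6.38% to 12.7% against 0% to 3.2%. The other 4210 promoters, 90.7% of the class, scored 100 or more.

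The limits of the selection were close to some promoters. At the width limit, 39 of the promoters were 4500 bp wide and 35 otherwise similar intervals of 5000 bp were left out, among them those of Osr2 and Adgrb1. Inhbb, Brinp3, Plxna2, Arhgap27 and Caskin2 were the first of the widest by score. At the H3K27ac limit, 16 promoters had H3K27ac at 1500 bp, Ezh1 and Rac3 among them, and 11 intervals were left out with H3K27ac at 1000 bp, among them Bpnt1 and Wrb. The largest distance to a start was 976 bp, at Kbtbd11, and the nearest interval left out lay 1108 bp from a start of Dnah2. A start outside the interval, as at 51 of the promoters, need not be the start that the peak marks.

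The DNA around the starts was CpG-rich, though less so than at acetylated promoters. CpG content was taken as the observed-to-expected ratio within 500 bp on either side of the start nearest the centre of the interval, which compares the number of CGs with that given by the C and G content. The median ratio was 0.692 (quartiles 0.579 and 0.791) at the promoters without H3K27ac, 0.789 (0.681 and 0.887) at acetylated promoters and 0.195 (0.117 and 0.326) at 9007 most upstream starts of genes with no H3K4me3. GC content had medians of 59.5%, 61.5% and 46.8%. With a ratio above 0.6 and GC content above 50% taken as CpG-rich, the shares were 68.9% (95% interval 67.5 to 70.2), 84.6% (83.7 to 85.5) and 4.53% (4.12 to 4.98). Over all coding genes the share was 46.0%.

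The order of the classes held on every chromosome looked at. The median ratio of the promoters without H3K27ac was below that of acetylated promoters and above that of starts without H3K4me3 on 20 of 20 chromosomes. It ranged from 0.626 to 0.725, against 0.741 to 0.834 at acetylated promoters, so the chromosome medians of both classes did not overlap. It also held at equal width. Among intervals of 2000 bp the medians were 0.642 (n = 1558) and 0.738 (n = 795), and among intervals of 2500 bp they were 0.711 (n = 1859) and 0.770 (n = 1815). The promoters with scores under 100 were the less CpG-rich ones, with a median ratio of 0.564 and 39.8% CpG-rich, against 0.701 and 71.9% at scores of 100 or more. The spread of the ratio is drawn for the classes.

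**Figure D2:**
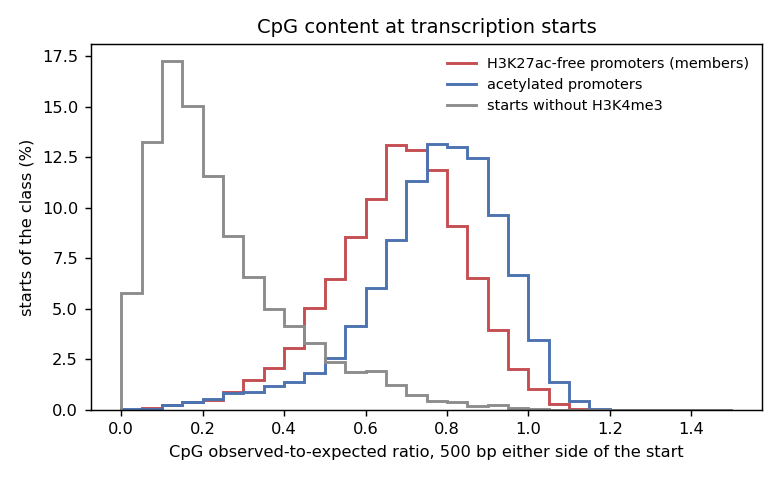
Distribution of the CpG observed-to-expected ratio within 500 bp either side of the start, as the percentage of starts of each class per step of the ratio, for promoters without H3K27ac (red, n = 4642), acetylated promoters (blue, n = 6297) and starts without H3K4me3 (grey, n = 9007). The red curve, with its median at 0.692, lies between grey (0.195) and blue (0.789), much nearer to blue.

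Short sequence matches were then counted from 250 bp before to 50 bp after the same starts, on both strands, except for the TATA box. A match is not a binding site. The ETS site CCGGAAG, the core bound by factors such as GABPA and ELK1, was in 13.3% of the promoters without H3K27ac (95% interval 12.4 to 14.3), 20.8% of acetylated promoters (19.8 to 21.8), 2.60% of starts without H3K4me3 and 11.2% of all coding genes. The YY1 site AAGATGGC was in 3.34%, 6.05%, 1.05% and 2.98% of these classes. The cyclic AMP response element TGACGTCA was in 2.48%, 4.02%, 1.05% and 2.50%, and the NRF1 core TGCGCA in 577 of 4642 (12.4%), 958 of 6297 (15.2%), 360 of 9007 and 10.1%. Each of these 4 was less frequent without H3K27ac than with it, and their intervals did not overlap.

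The Sp1 site GGGCGG, at 67.9% and 72.4% (15.1% without H3K4me3, 44.9% of all), and the hypoxia response core NACGTGC, at 7.37% and 9.13% (3.71% and 6.55%), were also less frequent. Other matches differed by less than their counting intervals. The CCAAT box of NF-Y (CCAATNNG) was in 17.3% of the promoters without H3K27ac and 17.4% of acetylated ones, against 12.9% of starts without H3K4me3 and 16.2% of all genes. The E-box CACGTG, which shares letters with the hypoxia response core, was in 9.93% and 10.1% (4.50% and 7.79%), and the E2F site TTTCCCGC in 2.18% and 2.27% (0.489% and 1.40%). A TATA box (TATAAA, searched only on the gene's strand from 40 to 20 bp before the start) was rare in both classes, at 0.969% and 0.683%, against 4.70% of starts without H3K4me3 and 2.40% of all genes. Of the less frequent sites all but the YY1 site contain a CG, and the class was less CpG-rich. The E-box and the E2F site, which hardly differed, contain a CG as well. The classes were not matched for CpG content, so its part in these differences was not tested.

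The promoters without H3K27ac lay near starts of a single coding gene more often. Starts were counted within 1000 bp of the whole interval, and acetylated promoters were wider, so they could reach more starts. These counts were not compared at equal width. Starts of 2 or more coding genes lay at 307 of them (6.61%, 95% interval 5.93 to 7.36) and at 907 acetylated promoters (14.4%, 13.6 to 15.3). Coding genes on both strands, as at bidirectional promoters, were at 5.82% (5.18 to 6.53) and 12.9% (12.1 to 13.8). A start of a long non-coding RNA was at 12.6% (11.6 to 13.5) and 16.6% (15.7 to 17.5). The median length of the gene was similar, 28.9 kb and 28.5 kb, while the upper quartile was 80.4 kb without H3K27ac and 63.9 kb with it.

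Beyond the 1000 bp that the selection used, H3K27ac also lay farther away. The next H3K27ac peak beyond 1000 bp was a median of 50500 bp from the promoters without H3K27ac (quartiles 21500 and 124875 bp), 28000 bp from acetylated promoters and 129400 bp from 8766 starts with neither mark within 1000 bp. It lay within 10 kb at 550 of the promoters (11.8%), at 20.9% (95% interval 19.9 to 21.9) of acetylated ones and at 7.06% (6.54 to 7.62) of the unmarked starts, and over 50 kb away at 50.3% (48.8 to 51.7), 31.6% (30.4 to 32.7) and 70.3% (69.3 to 71.2), in the same order. The share of these next peaks that was in the list of 1 oxygen level only was 4.57%, 4.99% and 3.40%. The plot of the distance to the next peak places the promoters between the other classes over most of the range.

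**Figure D3:**
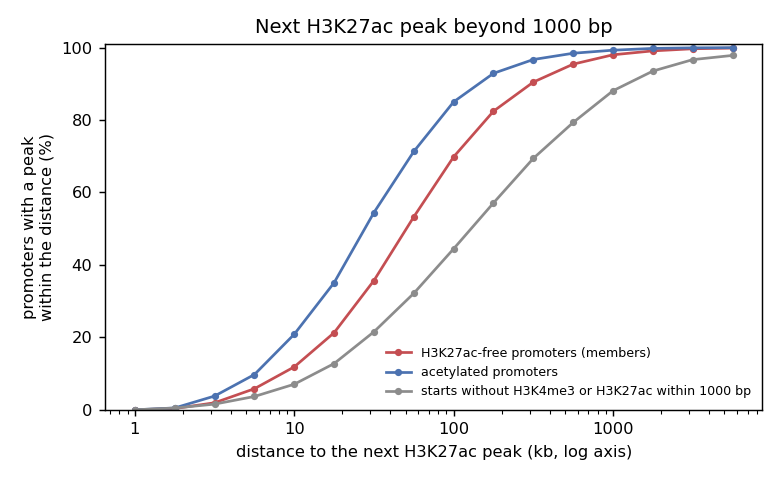
Percentage of promoters with the next H3K27ac peak beyond 1000 bp inside the distance on the log axis, for promoters without H3K27ac (red), acetylated promoters (blue) and starts with neither mark within 1000 bp (grey). Medians are 50500, 28000 and 129400 bp.

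Nearly the same intervals lacked H3K27ac at each oxygen level. By the list of 2% oxygen alone 4664 H3K4me3 intervals at coding starts lacked it, and by the list of 21% oxygen alone 4785 did, with the 4642 common to both. These were 37.1% and 38.0% of the 12578 shared H3K4me3 intervals at coding starts. By the methods, H3K27ac peaks were also called in a differential mode between the oxygen levels, so the lists need not be independent. At 143 intervals H3K27ac was called at 2% oxygen only, of which 105 were overlapped by it, and at 22 it was called at 21% oxygen only, 12 by overlap. Some of these intervals adjoined each other, and with adjoining ones joined there were 114 and 16. The 143 included intervals at Pparg, the main regulator of fat cell formation, Alpl, the alkaline phosphatase of bone, and Gata2, a factor of blood stem cells. H3K27ac overlapped an interval at Pparg, while at those of Alpl and Gata2 it touched without overlap. None of the 22 was at a gene of the lists used below. More calls at 2% oxygen only were not particular to these intervals. The next H3K27ac peak beyond 1000 bp was in the 2% list only for 153 promoters of the class and in the 21% list only for 59. For acetylated promoters these numbers were 225 and 89, and for starts with neither mark 216 and 82. Whether the 143 and 22 exceed the spread between libraries cannot be told from pooled lists.

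At the level of genes, 4858 of 21911 protein-coding symbols had at least 1 promoter of this class, or 22.2%. H3K4me3 with H3K27ac at or within 1000 bp of it was found at a start of 36.9% of the genes, and 41.1% had no H3K4me3 at a start. Of the genes with H3K4me3, 37.6% had a promoter of this class. Only 134 genes had both a promoter without H3K27ac and another start with it. To describe which genes these were, 33 lists were drawn up from gene names and general knowledge, with 1691 matched genes, of which 582 had such a promoter. The other 4276 genes were in none of the lists. Since the class is defined by the calls themselves, the counts per list are descriptions, read beside the 22.2% of all genes and the 37.6% of genes with H3K4me3.

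**Figure D4:**
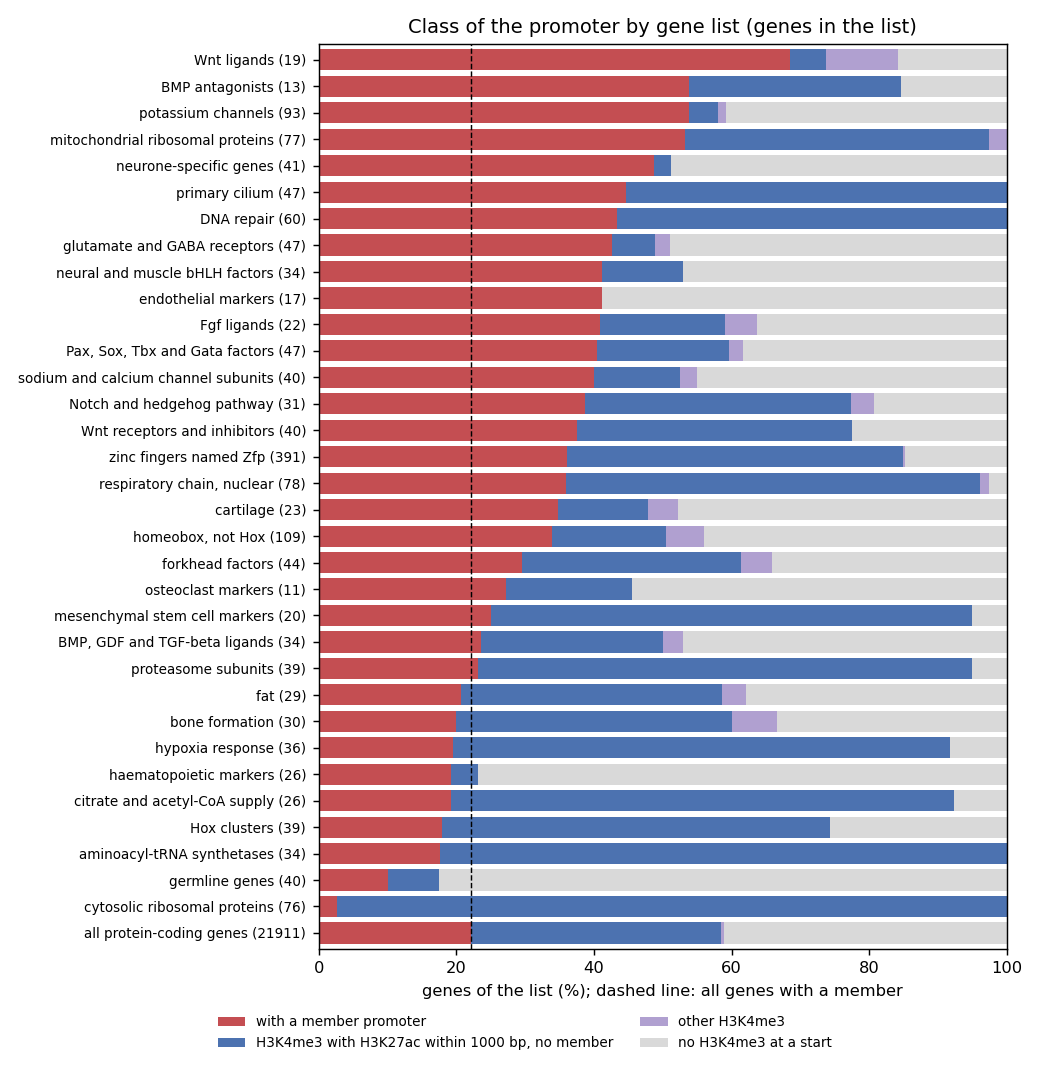
Percentage of the genes of each list that have a promoter with H3K4me3 and without H3K27ac (red), H3K4me3 with H3K27ac within 1000 bp and no red promoter (blue), other H3K4me3, too wide or in 1 list only (violet), or no H3K4me3 at a start (grey), with the number of genes in parentheses. The dashed line marks the 22.2% of all genes, and the red share runs from 2.63% of cytosolic ribosomal proteins to 68.4% of Wnt ligands.

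Among secreted signals, the Wnt ligands were counted first. Of 19 Wnt genes, 13 had a promoter of this class (68.4%, 95% interval 46.0 to 84.6), 3 had no H3K4me3, 2 had other H3K4me3, and Wnt5a alone had H3K27ac at or near its H3K4me3. This was the highest share of the 33 lists, but the rank was not kept without the lowest-scoring 25% of H3K4me3, an alternative chosen after seeing the data. The class then held 5 of the 19 Wnt genes, 38 of 77 mitochondrial ribosomal protein genes and 15.9% of all genes. That cut set the same score limit on all chromosomes, though high scores followed the chromosome. Wnt ligands bind Frizzled receptors and act on bone formation among many other processes. The promoters included those of Wnt2b, Wnt6, Wnt9a and Wnt5b, which lay 28500, 42500, 76500 and 28000 bp from the next H3K27ac peak. Of 40 Wnt receptors and inhibitors 15 were in the class and 16 had H3K27ac. The 15 included Fzd6, a Frizzled receptor, Notum, an enzyme that inactivates Wnt proteins, Lgr5, a receptor for R-spondins, and Wif1, a secreted inhibitor.

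Other signalling families were divided. BMP antagonists, which bind bone morphogenetic proteins outside the cell, had 7 of 13 genes in the class (among them Chrd, Chrdl1, Chrdl2, Fstl3, Bmper and Grem1) and 4 with H3K27ac (Fst, Nog, Nbl1 and Twsg1). The BMP, GDF and TGF-beta ligands had 8 of 34 in the class, among them Inhbb, Bmp6, Bmp7 and Bmp8a, and 9 with H3K27ac. Fibroblast growth factors had 9 of 22, among them Fgf5, Fgf8, Fgf12 and Fgf18, and 4 with H3K27ac. In the Notch and hedgehog pathways 12 of 31 genes were in the class and 12 had H3K27ac. The hedgehog ligand Shh, the effectors Gli1 and Gli2, the Notch target Hey1, and Hes6 were among the former. The receptors Ptch1 and Smo, Gli3, Notch1, Notch2 and Jag1 were among the latter.

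Families of transcription factors were counted next, some of whose members, such as Dlx3 and Sox5, are also in the bone and cartilage lists below. Homeobox genes outside the Hox clusters had 37 of 109 in the class, or 60.7% of those with H3K4me3, and 18 with H3K27ac. Without the lowest-scoring 25% of H3K4me3 the 37 became 13. The 37 included Lhx4, Lmx1a, Isl1 and Lhx9, which act in neural development. Of the Pax, Sox, Tbx and Gata factors 19 of 47 were in the class (Sox13, Sox5, Tbx2 and Pax2 led by score), and of the neural and muscle basic helix-loop-helix factors 14 of 34 (Bhlhe22, Ascl2, Neurog2 and Twist2). Forkhead factors had 13 of 44 in the class (29.5%, 95% interval 18.2 to 44.2) and 14 with H3K27ac. The Hox clusters had 7 of 39 genes in the class (17.9%, 8.98 to 32.7), among them Hoxb4, Hoxb9, Hoxd1 and Hoxd13, and 22 with H3K27ac. Both of these intervals hold the 22.2% of all genes. The next H3K27ac peak lay over 50 kb away at 75.7% of the homeobox genes of the class, against 49.2% of all genes in it.

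Genes of excitable cells were mostly in the class or without H3K4me3. Potassium channel genes had 50 of 93 in the class (53.8%, 95% interval 43.7 to 63.5), 38 without H3K4me3 and only 4 with H3K27ac (Kcnab2, Kcnab3, Kcne4 and Kcnn4). The class thus held 90.9% of the potassium channel genes with H3K4me3. Without the lowest-scoring 25% of H3K4me3 the 50 became 30. Kcna3, Kcnc1, Kcnc4 and Kcnd3 encode voltage-gated channels and lay 294000, 396500, 122500 and 233000 bp from the next H3K27ac peak. Sodium and calcium channel subunits had 16 of 40 in the class, with Scn8a, Cacna1i, Cacng4 and Cacng7 among them. Glutamate and GABA receptors had 20 of 47 in the class and 3 with H3K27ac. Grm4 and Grik4, a metabotropic and a kainate glutamate receptor subunit, were 40500 and 65000 bp from the next H3K27ac peak. Of 41 neurone-specific genes 20 were in the class, 20 had no H3K4me3 and 1, Dlg2, had H3K27ac at or near H3K4me3. An interval at Dlg2 was only touched by H3K27ac, at 2% oxygen only. The adjoining interval, which H3K27ac overlapped, was assigned to Tmem126b. Mapt, Tubb3, a neuronal tubulin, and Nlgn1, an adhesion protein of the synapse, were among the 20 in the class. The median distance to the next H3K27ac peak was 359500 bp for the receptors, 164500 bp for the neurone-specific genes and 96750 bp for potassium channels in the class, against 49000 bp over all genes in it.

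Genes of machineries that most cells use nearly all had H3K4me3, so their counts are read beside the 37.6% of genes with the mark. Mitochondrial ribosomal proteins had 41 of 77 genes in the class (53.2%, 95% interval 42.2 to 64.0), 34 with H3K27ac and none without H3K4me3. This interval lies above 37.6%. Mrpl10, Mrpl12, Mrpl13 and Mrpl38 led by score. Of the nuclear genes of the respiratory chain 28 of 78 were in the class (36.8% of those with H3K4me3) and 47 had H3K27ac, with Cox6b1, Cyc1, Ndufa3 and Atp5g1 in the former. DNA repair had 26 of 60 (43.3%, 31.6 to 55.9), with 34 with H3K27ac. The 26 included the ligase Lig1, the poly(ADP-ribose) polymerase Parp1, Xrcc1, which acts in single-strand break repair, and Brca2, which acts in homologous recombination. Primary cilium genes had 21 of 47 (44.7%, 31.4 to 58.8), among them Bbs7, Ift27, Ofd1 and Mks1, and 27 with H3K27ac. Every gene of these last 2 lists had H3K4me3, and both intervals hold 37.6%. Of 391 zinc finger genes named Zfp, 141 were in the class (36.1%, or 42.3% of those with H3K4me3). Of the others 191 had H3K27ac and 58 had no H3K4me3. The intervals of Zfp108, Zfp109, Zfp111 and Zfp112 lay on chromosome 7 between 24111501 and 24256000.

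The other basic machineries listed were mostly acetylated. Cytosolic ribosomal proteins had 2 of 76 (2.63%, 95% interval 0.725 to 9.10), Rps4x and Rpl36a, and the other 74 had H3K27ac. Aminoacyl-tRNA synthetases, which charge tRNAs, had 6 of 34 (17.6%, 8.35 to 33.5), with Lars2, Tars, Tars2 and Wars leading by score, and 28 with H3K27ac. Proteasome subunits had 9 of 39 (23.1%, 12.6 to 38.3), with Psmc4, Psmd4, Psmb6 and Psmd2 leading, and 28 with H3K27ac. The intervals of the synthetases and the proteasome hold the 22.2% of all genes, and that of the cytosolic ribosome lies below it. All genes of the synthetase and cytosolic ribosome lists had H3K4me3, and both intervals lie below the 37.6% of genes with the mark. Of the 37 proteasome genes with H3K4me3, 24.3% were in the class. The class held 2.63% of the cytosolic and 53.2% of the mitochondrial ribosomal protein genes.

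The distance to the next H3K27ac peak and the ETS site varied from list to list. The median distance over all genes in the class was 49000 bp. It was 29500 bp for mitochondrial ribosomal proteins, 31500 bp for the respiratory chain, 30750 bp for Notch and hedgehog genes and 23500 bp for BMP antagonists. It was close to that of all genes for primary cilium (48000 bp), Zfp (44500 bp), Wnt ligand (50000 bp), forkhead (50500 bp) and Hox genes (51000 bp), with 40750 bp for DNA repair, 42000 bp for Wnt receptors and inhibitors and 40500 bp for cartilage. Homeobox genes outside the Hox clusters, at 80000 bp, and the channels and receptors above were farther away. The ETS site was in 13.9% of the promoters of all genes in the class. It was in 15 of the 41 mitochondrial ribosomal protein promoters, 33 of 141 Zfp, 5 of 28 respiratory chain, 4 of 26 DNA repair and 3 of 21 cilium promoters. It was in 3 of 50 potassium channel, 2 of 37 homeobox and 0 of 13 Wnt promoters.

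The markers of the sorted cells were checked next. Of 20 markers of MSCs 14 had H3K27ac at or near H3K4me3, among them Pdgfra, which encodes the CD140a used in the sort, Prrx1, Cxcl12 and Vcam1. The 5 in the class were Nt5e, Mcam, Grem1, Eng and Lepr, of which Lepr, the leptin receptor, had a low score of 58. Ly6a, which encodes the Sca-1 used in the sort, had no H3K4me3 at its start. Of 26 haematopoietic markers 20 had no H3K4me3, Ptprc (CD45) among them, Vav1 had H3K27ac and 5 were in the class, among them Cd34, Ikzf1, Klf1 and Kit. Of 17 endothelial markers 10 had no H3K4me3, none had H3K27ac and 7 were in the class, among them the VEGF receptors Kdr, Flt1 and Flt4 and the factor Erg. Of 11 osteoclast markers 3 were in the class (Itgb3, Oscar and Tnfrsf11a). Oscar and Ndufa3 shared 1 interval. It held the start of Ndufa3, while the start of Oscar lay 344 bp outside it, so the peak need not mark Oscar. Of the MSC markers 25% were in the class (Wilson interval 11.2 to 46.9), and of the haematopoietic markers 19.2% (8.51 to 37.9). Of the endothelial markers 41.2% were in it (21.6 to 64.0), and of the osteoclast markers 27.3% (9.75 to 56.6). All of these Wilson intervals hold the 22.2% of all genes.

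Genes of the lineages that MSCs can form were split between the classes. Of 30 bone formation genes 6 were in the class (20%, 95% interval 9.51 to 37.3), 12 had H3K27ac and 10 had no H3K4me3. The 6 were Bmp2, Dlx3, Enpp1 and Phospho1, which control pyrophosphate and phosphate in mineralisation, Pth1r, the parathyroid hormone receptor, and Tnfsf11, which encodes RANKL. The 12 with H3K27ac at or near H3K4me3 included Runx2, Sp7, Alpl, Col1a1 and Col1a2. The interval at Alpl named above was only touched by H3K27ac, at 2% oxygen only. Ibsp, Spp1, Dmp1 and Sost, genes of mature bone cells, were among the 10. Of 23 cartilage genes 8 were in the class (34.8%, 18.8 to 55.1), among them Acan, which encodes aggrecan, Col2a1, Hapln1 and Sox5. Of 29 fat genes 6 were in the class (20.7%, 9.85 to 38.4) and 11 had no H3K4me3. The 6 included the lipases Lpl and Lipe and the coactivator Ppargc1a. Of 40 germline genes 4 were in the class (10%, 3.96 to 23.1) and 33 had no H3K4me3. The 4 were Tdrd5, Smc1b, Stag3 and Syce2. The intervals of the bone, cartilage, fat and germline lists hold the 22.2% of all genes.

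A few genes of bone formation that the study shows were read one by one. At Bmp2 the H3K4me3 interval on chromosome 2 from 133551001 to 133555500 (mm10) was 4500 bp wide with a score of 124, and the next H3K27ac peak was 964000 bp away. At Dlx3 the interval on chromosome 11 from 95119501 to 95122500 had a score of 118, with H3K27ac 16000 bp away. Sp7, the osteoblast factor osterix, was outside the class, since H3K27ac touched its H3K4me3 interval. Wnt1 and Bglap, which encodes osteocalcin, had no H3K4me3 at their starts, and the nearest H3K4me3 lay 10856 and 24567 bp away.

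Genes of oxygen sensing and of acetyl-CoA supply were mostly acetylated. Of 36 hypoxia response genes 28 had H3K27ac and 7 were in the class (19.4%), 2 of them, Mxi1 and Pfkfb3, with a further start of the other kind. Epas1 encodes HIF-2alpha, Egln3 a prolyl hydroxylase and Hif1an an asparaginyl hydroxylase of the HIF proteins, and with Edn1, which encodes endothelin-1, they lay 149000, 415000, 173000 and 247000 bp from the next H3K27ac peak. The start of Car9, a carbonic anhydrase, lay 535 bp outside its interval. Of 26 genes that supply citrate or acetyl-CoA 19 had H3K27ac, among them Slc25a1, the citrate carrier, and Acly. The 5 in the class were Mlycd, Pdk2, Pdk4, Pdp2 and Acss1, and 3 of them act on pyruvate dehydrogenase as kinases or a phosphatase.

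The class was unevenly spread over the chromosomes. On chromosome X 237 of 384 H3K4me3 intervals at coding starts lacked H3K27ac (61.7%, 95% interval 56.8 to 66.4), against 4402 of 12190 on the autosomes (36.1%, 35.3 to 37.0). Single autosomes ranged from 32.4% to 39.0%. Acetylated promoters made up 32.6% (28.1 to 37.4) of the intervals on X and 50.6% (49.7 to 51.5) on the autosomes. The X also held fewer peaks of both marks, with 1.23 H3K27ac intervals per Mb against 4.25 to 9.67 on single autosomes and 2.53 H3K4me3 intervals per Mb against 4.02 to 9.41. The methods give the mice as males, whose cells carry 1 X for 2 copies of each autosome, and the part of copy number in these calls was not tested.

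**Figure D5:**
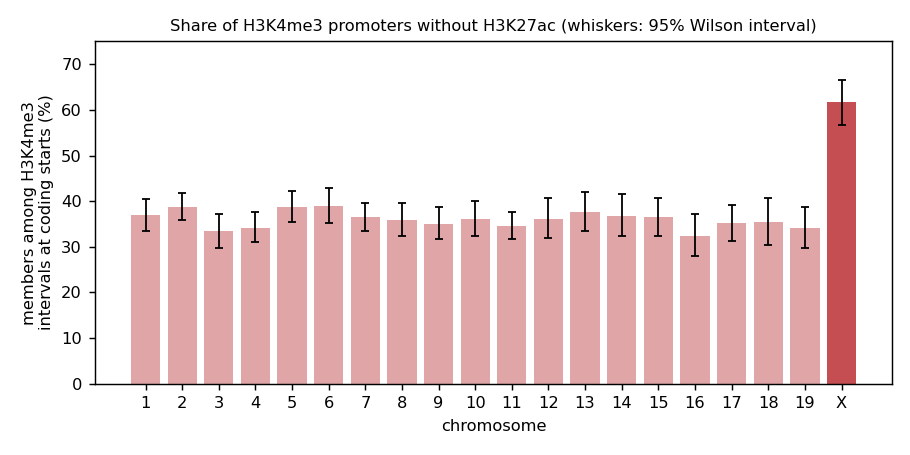
Share of H3K4me3 intervals at coding starts that lack H3K27ac within 1000 bp and are narrower than 5000 bp, by chromosome, with 95% Wilson intervals as whiskers. Chromosome X, at 61.7%, lies above the autosomes, which range from 32.4% to 39.0%; chromosome Y, with 4 such intervals, is not drawn.

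The promoters of X and of the autosomes also differed in other measures. On X the median width was 2000 bp against 2500 bp, the median CpG ratio 0.626 against 0.695 and the next H3K27ac peak 172500 bp against 48500 bp away. Scores under 100 were held by 12.7% and 9.09%. Counted by gene, 249 of 381 X-linked genes with H3K4me3 were in the class (65.4%, 95% interval 60.4 to 70.0) and 4606 of 12527 autosomal ones (36.8%, 35.9 to 37.6). Both ribosomal proteins of the class, Rps4x and Rpl36a, are on X, where 2 of 4 cytosolic ribosomal protein genes were in the class against 0 of 72 elsewhere. For the respiratory chain the counts were 3 of 3 (Ndufa1, Ndufb11 and Cox7b) and 25 of 75. Psmd10, Fancb and Ofd1 were the only X-linked genes of the proteasome, repair and cilium lists, and each was in the class. Over all lists 21 of 28 X-linked genes with H3K4me3 were in the class, and 561 of 1250 elsewhere.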

How the data were processed

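H3K27ac, H3K4me3 and input ChIP-seq libraries of MSCs at 2% and 21% oxygen formed 6 groups of 2. According to the methods, the authors aligned the reads to mm10 (bowtie2), marked and dropped duplicate reads (Picard) and ran the peak caller chromstaR in its differential mode. They deposited 4 peak lists (1 per mark and oxygen level) with a score per peak, whose definition is not given in the sources used here. No read counts were used, so depth, the spread between libraries and the input are unknown, and each value describes 1 pooled call.

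Intervals were classified with Python 3.11.15, pandas 2.3.3 and the basic GENCODE M21 annotation (41525 coding starts). Sequences came from the RefSeq copy of GRCm38. The interval code was checked on simulated intervals. No test was run, since promoters are not replicates. The promoters, gene lists and examples were chosen with earlier results of these data known. Within a list, up to 4 genes were named by the higher H3K4me3 score, ties by symbol, with further names chosen after their values were seen. Since high scores followed the chromosome, this order does not rank genes by how strong the mark was. Of the listed symbols 1 did not match, and some genes of the lists are not reported here. The alternatives tried are in the closing section.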

Additional observations from a re-analysis of the deposited data

How the results depend on the processing

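No paired analysis was possible because each list pools a group's libraries and names no replicate. Leaving out a replicate was not possible for the same reason. By the methods, the call itself compared the oxygen levels. The number of promoters was 3276 to 5563 under the 11 alternatives and stayed within 1.5 times the 4642 reported. The median width was 2500 bp and the median score difference 0 under all that were run, the latter because scores are identical at both oxygen levels.

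The share of H3K4me3 intervals at coding starts without H3K27ac, 36.9%, was 35.4% with starts within 2500 bp, 38.6% with starts inside or within 500 bp, 43.8% with H3K27ac allowed to touch and 35.1% with none within 5000 bp. It was 34.3% without the lowest-scoring 25% of H3K4me3, 44.2% without the lowest-scoring 25% of H3K27ac and 38.0% by H3K27ac at 21% oxygen alone. The share of genes, 22.2%, became 26.5% with touching allowed, 21.1% with the limit of 5000 bp, 15.9% and 25.9% with the stricter H3K4me3 and H3K27ac lists, 22.7% by H3K27ac at 21% oxygen and 17.4% with 1 start per gene. The median CpG ratio, 0.692, became 0.703 with touching allowed, 0.707 and 0.698 with the stricter lists, 0.686 with 1 start per gene and 0.760 within 250 bp.

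Further alternatives were chosen after seeing the data. The share on chromosome X, 61.7%, was 59.6% to 71.1% under 7 of them. Without the lowest-scoring 25% of H3K4me3 the class held 30 potassium channel genes in place of 50, 5 Wnt ligands in place of 13 and 13 homeobox genes in place of 37. Under the other 6 these lists had 49 to 51, 12 to 15 and 37 to 43. The cut on H3K4me3 scores was the same on all chromosomes, but the commonest score was 121 on chromosome 2 and 1000 on chromosome 15. It therefore fell unevenly over the chromosomes, and the lower counts cannot be put down to weak peaks alone. The lists of mitochondrial ribosomal proteins (38 to 49), DNA repair (22 to 32), cilium (14 to 23) and zinc finger genes (112 to 161) stayed within 1.5 times under all 7. The CpG ratio stayed lower than at acetylated promoters by a difference of -0.0963 to -0.0848, and the ETS share by -7.55 to -6.31 percentage points, under 3 alternatives.

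The depth of the libraries is not in the lists. Lacking H3K27ac here means that no peak was called at the authors' threshold, and acetylation below it was not analysed.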

Other observations

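Some of the promoters lay close together. The windows of 500 kb with the most of them were on chromosome 17 from 25715501 to 26204500 with 15 of 24 H3K4me3 intervals at coding starts, on chromosome 15 from 75893001 to 76382000 with 12 of 21, and on chromosome 7 from 24111501 to 24613000 with 12 of 18. The window on chromosome 7 held 9 zinc finger genes of the class together with Xrcc1, Ethe1, a mitochondrial sulphur dioxygenase, and Cadm4, an adhesion protein. The window on chromosome 17 held Mrpl28, Decr2, Rhot2 and Nme4, whose products are in mitochondria or peroxisomes, beside Gng13, Rgs11, Metrn and Fbxl16.

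Some genes had several of these promoters. At 98 genes there were 2 and at Ank2 and Dab2ip there were 3. Ank2 encodes ankyrin-B, a linker of membrane proteins to the cytoskeleton, and its intervals on chromosome 3 began at 127160001, 127407501 and 127498001, each with a score of 137. Ank1, which encodes the ankyrin of red blood cells, had 2 on chromosome 8, at 22973501 and 23057501. At Acvr2b, an activin receptor gene, the 2 intervals touched at 119403000 on chromosome 9, and a pair of the Dab2ip intervals touched too.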
